A study of Mus musculus with 2 samples.

Results

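The 300 stretches of 1 kb on chromosomes 1 to 19 that held the most END-seq reads in quiescent mouse B cells are described here, out of 2367428 bins of 1 kb with at least 1 read. A bin was a member if its reads in the G1 library, summed over both strands, put it among the 300 highest. The bins were thus chosen by their G1 reads, and both the G1 sums and the S over G1 ratios made from them are descriptions. The 3 members of lowest rank held 364, 381 and 277 S reads and 283, 282 and 281 G1 reads, and the 3 bins just outside held 326, 379 and 284 S reads and 280 G1 reads each.

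END-seq ligates an adapter to DNA ends in cells held in agarose, so that the first base of each read marks an end. A plus-strand read runs rightward from that end and a minus-strand read leftward. The series compares CD43- splenic B cells from mice of 4 to 8 weeks, with 1 library per state. The S-phase library came from cells activated in culture for 24 to 28 h with IL-4 at 25 ng/mL plus anti-CD40 at 1 µg/mL, signals that start B cell division. The G1 library came from quiescent cells cultured without them. Both library titles begin with ATR+c, a term that the labels leave unexplained, and neither a strain nor a number of mice is given there. S and G1 are names from the labels, which do not say how the phases were separated or checked.

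Repeats shape such a ranking. Mouse centromeres sit at 1 end of each chromosome, next to long arrays of satellite DNA, short sequences repeated head to tail. Most of these arrays are missing from genome assemblies, so reads from many copies can be placed on the few stretches that are present. Chromosome ends carry telomeres, arrays of the hexamer TTAGGG, and blocks of the same hexamer also occur inside chromosomes. Active gene starts are open chromatin and are known places of DNA breaks in B cells.

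Whether the name repeat and satellite bins holds could be checked only in part, since neither a repeat annotation nor the bases of most bins were used here. Of the 300 bins, 165 overlapped the window from 250 bases before to 50 bases after a RefSeq gene start (GRCm38.p6), against 1.47% of all covered bins and 71.3% of the next 1000 bins by G1 reads. The reads were spread otherwise. The 10 highest bins held 69.8% of the members' reads in the S library and 71.3% in the G1 library. The members were split, after their values had been seen, by G1 reads, position and strand share into the 6 blocks with the most G1 reads (53 bins), other blocks of 3 or more bins (23), chromosome right ends (12), interior one-strand bins, where 1 strand held 95% of the reads or more (17), gene starts (164) and the rest (31). A block is a run of member bins with gaps of at most 10 kb, and there were 230 of them, 218 of which were a single bin. Because G1 reads helped to set the classes, their S over G1 ratios are descriptions too.

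The sequences shown next belong to gene starts, the class with the most bins, and to the 1 RefSeq gene inside the chromosome 9 block. Windows are given for the 5 gene-start bins with the most G1 reads whose highest G1 position lay inside a RefSeq window, a choice made after the values were seen. Each is written 5′ to 3′ along the gene, with mm10 positions, and the 11 capitals are centred on the position with the most G1 read ends.
Dcaf11, chr14:55560673-55560972, plus strand: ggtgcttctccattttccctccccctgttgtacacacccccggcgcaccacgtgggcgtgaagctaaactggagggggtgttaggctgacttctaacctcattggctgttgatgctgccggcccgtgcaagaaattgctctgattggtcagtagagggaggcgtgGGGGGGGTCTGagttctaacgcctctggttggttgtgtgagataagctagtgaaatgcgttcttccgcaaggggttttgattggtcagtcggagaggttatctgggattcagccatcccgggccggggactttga
Gdi2, chr13:3537825-3538124, plus strand: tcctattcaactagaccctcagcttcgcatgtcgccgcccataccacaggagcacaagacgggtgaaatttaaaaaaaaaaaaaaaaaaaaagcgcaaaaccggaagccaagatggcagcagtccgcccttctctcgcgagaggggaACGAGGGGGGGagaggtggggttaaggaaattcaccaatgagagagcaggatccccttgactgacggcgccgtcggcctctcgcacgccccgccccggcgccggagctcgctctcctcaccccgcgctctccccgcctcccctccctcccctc
Camta1, chr4:151861719-151862018, minus strand: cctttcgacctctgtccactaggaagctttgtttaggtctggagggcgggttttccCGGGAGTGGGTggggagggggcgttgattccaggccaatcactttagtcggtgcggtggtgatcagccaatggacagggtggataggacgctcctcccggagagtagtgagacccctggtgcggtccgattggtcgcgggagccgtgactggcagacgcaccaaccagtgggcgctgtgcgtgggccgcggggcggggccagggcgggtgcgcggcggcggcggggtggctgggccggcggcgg
Fam72a, chr1:131527653-131527952, plus strand: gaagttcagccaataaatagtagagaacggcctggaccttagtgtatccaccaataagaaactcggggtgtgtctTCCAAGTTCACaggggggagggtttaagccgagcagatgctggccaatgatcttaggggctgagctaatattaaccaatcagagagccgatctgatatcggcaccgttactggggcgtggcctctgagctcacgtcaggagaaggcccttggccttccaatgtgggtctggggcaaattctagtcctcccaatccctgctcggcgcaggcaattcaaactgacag
Narf, chr11:121236986-121237285, plus strand: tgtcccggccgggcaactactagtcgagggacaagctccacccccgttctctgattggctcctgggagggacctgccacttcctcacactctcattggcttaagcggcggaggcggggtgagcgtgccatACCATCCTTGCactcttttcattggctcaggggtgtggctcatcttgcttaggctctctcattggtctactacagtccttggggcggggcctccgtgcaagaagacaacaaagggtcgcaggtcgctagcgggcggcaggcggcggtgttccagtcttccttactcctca
The last sequence is mmu-miR-101c, the only RefSeq gene in the chromosome 9 block, with its seed (bases 2 to 8) in capitals. Its mature sequence lies at chr9:3038680-3038698 on the minus strand.
mmu-miR-101c: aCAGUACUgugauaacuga
No genome sequence was used here for the other bins, so their repeat content is not shown.

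Both libraries stacked their reads on the same few places. The members held 1812001 of 20543572 reads of chromosomes 1 to 19 in the S library (8.82%, Clopper-Pearson 95% interval 8.81 to 8.83%) and 2487360 of 26889564 in the G1 library (9.25%, 9.24 to 9.26%). Scaled to these totals, the summed ratio of S over G1 was 0.954 (conditional exact Poisson 95% interval 0.952 to 0.955). All such intervals cover counting error only. With 1 library in each state there was no replicate check, and the difference is one between these libraries. In bulk libraries, fewer cells with ends at a place and fewer ends per cell cannot be told apart. Without molecular identifiers, a stack of reads may stem from a single molecule, and in stacks the intervals understate the error. The members averaged 44.8 reads per covered position in the S library and 63.5 in the G1 library, against 2.66 in S and 3.64 in G1 over the rest of these chromosomes. With each position capped at the depth that 1 in 1000 positions of its library and strand exceed, the members held 1.73% of S reads and 1.73% of G1 reads and the ratio was 1.00.

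The single-bin view differed from the sum. The median bin had an S over G1 ratio of 1.23, with 218 bins above 1 and 82 below. Of the 6919 bins that reached 50 reads in either library, 61.4% were above 1, with a median of 1.22, and of the next 1000 bins by G1 reads 85.7% were. A bin was called past 2-fold if the ratio reached 2 or 0.5 and both strands went the same way. By this rule 4 members were higher and 1 was lower in S, where 17.6% of the 6919 bins were called higher and 15.4% lower. Those bins have far fewer reads than the members, and in the next 1000 bins by G1 reads the shares were 6% and 0.9%. A bin could also join the 6919 by its reads in 1 library alone, a rule that itself favours ratios far from 1. With reads capped, or with each covered position of a strand counted once, 0 members passed.

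**Figure D1:**
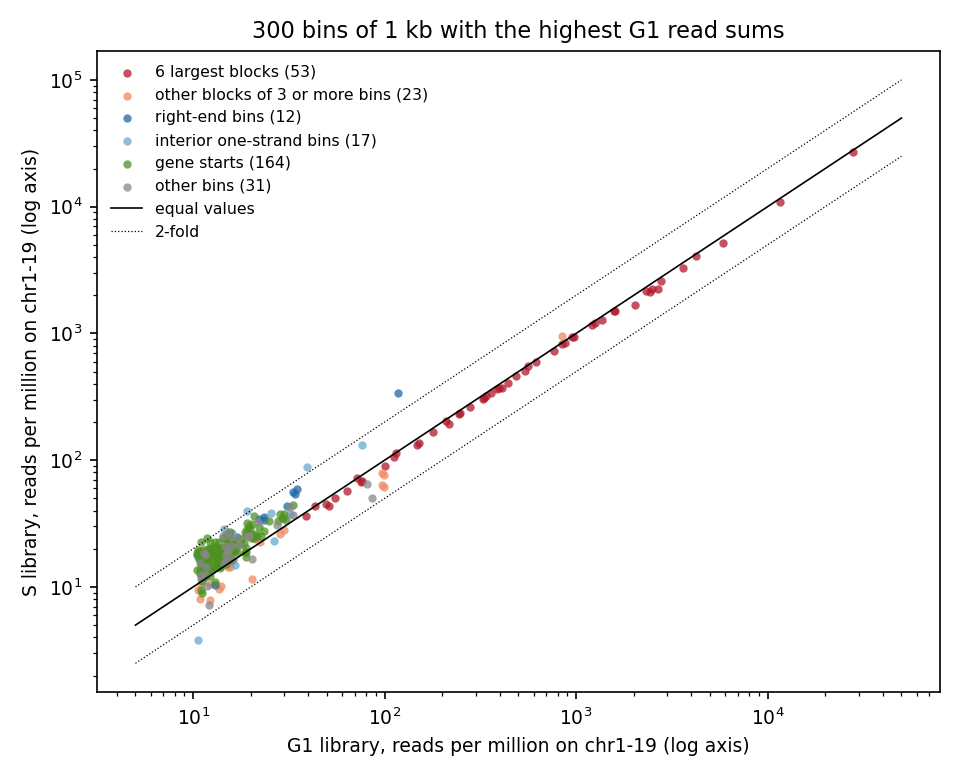
Each point is 1 of the 300 bins, with its RPM (reads per 1000000 reads on chromosomes 1 to 19) in the S library (vertical log axis) against the G1 library (horizontal log axis), coloured by class. Bins of the 6 largest blocks run along or just below the line of equal values over their whole range, and most gene starts, right ends and interior one-strand bins lie above it.

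The highest members were also the highest bins of the S library, which had no part in choosing them. All 10 of the highest G1 bins were also the 10 highest in S. Of the 300, 245 were shared with the 300 highest S bins, a share of 81.7% of each list. With S bins ranked by covered positions counted once, 187 of the 300 were shared. Another 55 bins entered only by their S reads, and 48 of these overlapped a gene start. By S rank, 130 of the 164 gene starts and all 53 bins of the 6 largest blocks lay within the first 300. The position with the most reads was the same base and strand in both libraries in 186 of the 300 bins, in 46 of the 53 bins of the largest blocks and in 96 of the 164 gene starts.

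Strand shares were close in the libraries. The plus strand held 42.5% of the members' reads in the S library and 42.7% in the G1 library. Per bin, the plus-strand share in S minus that in G1 had a median of -0.186 percentage points and lay within 5 points in 202 of the 300 bins and within 10 points in 266. With each covered position counted once, the plus share was 51.2% in S and 51.5% in G1, so the minus-strand excess lay in the height of the stacks. Much of it lay in the block with the most G1 reads, on chromosome 2, without which the plus share was 48.2% in S and 48.6% in G1. With capped reads the plus strand held more, 55.8% in S and 57.1% in G1. By place, 50 members lay within 200 kb of the first covered position of their chromosome, where the centromere is, against 0.16% of all covered bins. These were 39 bins on chromosome 9, 9 on chromosome 11 and 2 on chromosome 12. Another 12 lay at right ends and 238 in between.

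The 6 largest blocks held 1672965 S reads and 2343254 G1 reads, or 92.3% of the members' reads in S and 94.2% in G1. Their summed ratio was 0.934 (0.933 to 0.936). Single bins ran from 0.829 to 1.01, and 51 of 53 were below 1. The seventh block by G1 reads, in Myo3a, had a ratio above 1 and is described with the other blocks, and with it added the sum gave 0.936 (0.935 to 0.938). None of these bins overlapped a gene-start window.

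The largest was a block in the interior of chromosome 2 at chr2:98662001-98668000, 5 member bins over 6 kb with no RefSeq gene. It held 929131 reads in the S library and 1295632 in the G1 library, 4.52% of all S reads and 4.82% of all G1 reads on these chromosomes. The ratio was 0.939 (0.936 to 0.941). Its bin at 98667001 was the highest of all, with 551805 S reads and 753555 G1 reads. A single minus-strand position there, 98667008, carried 26510 reads in S and 34306 in G1, the highest stack of either library. The plus strand held 37.1% of the block's reads in S and 37.3% in G1.

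The second block lay at the assembled start of chromosome 9, beside the centromere, at chr9:3000001-3039000. Every one of its 39 bins was a member. It held 374700 S reads and 520597 G1 reads with a ratio of 0.942 (0.938 to 0.946). Bins ranged from 749 to 46206 reads in S and from 1047 to 66763 in G1, and in all 39 the ratio was below 1, from 0.851 to 0.991. The plus strand was the richer here, with 63.8% of reads in S and 64.2% in G1. The mature miR-101c stretch, inside the same block, had 0 reads on either strand in both libraries. A count of 0 allows up to 3 reads, and the span is only 19 bases long.

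The interior block of chromosome 14 at chr14:19415001-19420000 covered 5 bins, with 154307 S reads and 219010 G1 reads and a ratio of 0.922 (0.916 to 0.928). The start of chromosome 12 at chr12:3109001-3111000 covered 2 bins, with 127213 S reads and 179129 G1 reads and a ratio of 0.930 (0.923 to 0.936). These bins differed in strand. The left one had 47.0% plus-strand reads in S and 46.4% in G1, while the right one was nearly all minus strand, with 0.326% plus-strand reads in S and 0.344% in G1. One minus-strand position, 3110003, held 17577 of the right bin's 43557 S reads and 28521 of its 65130 G1 reads. It lies just inside the right bin, which begins at 3110001, and the highest plus-strand position of the block, 3109903, lies in the left bin. In this block the minus-strand pattern lay 71 bases right of the plus-strand pattern. The contrast between the bins may thus depend on where the bin edge falls, which was not tested.

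The other two were single bins inside annotated genes. A bin at chr9:35305001-35306000, in the long noncoding RNA gene Gm33838, held 53032 S reads and 74309 G1 reads with a ratio of 0.934 (0.924 to 0.945). A bin at chr6:103649001-103650000, in Chl1, which encodes a neural cell adhesion molecule, held 34582 S reads and 54577 G1 reads. Its ratio of 0.829 (0.818 to 0.841) was the lowest of the 6.

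**Figure D2:**
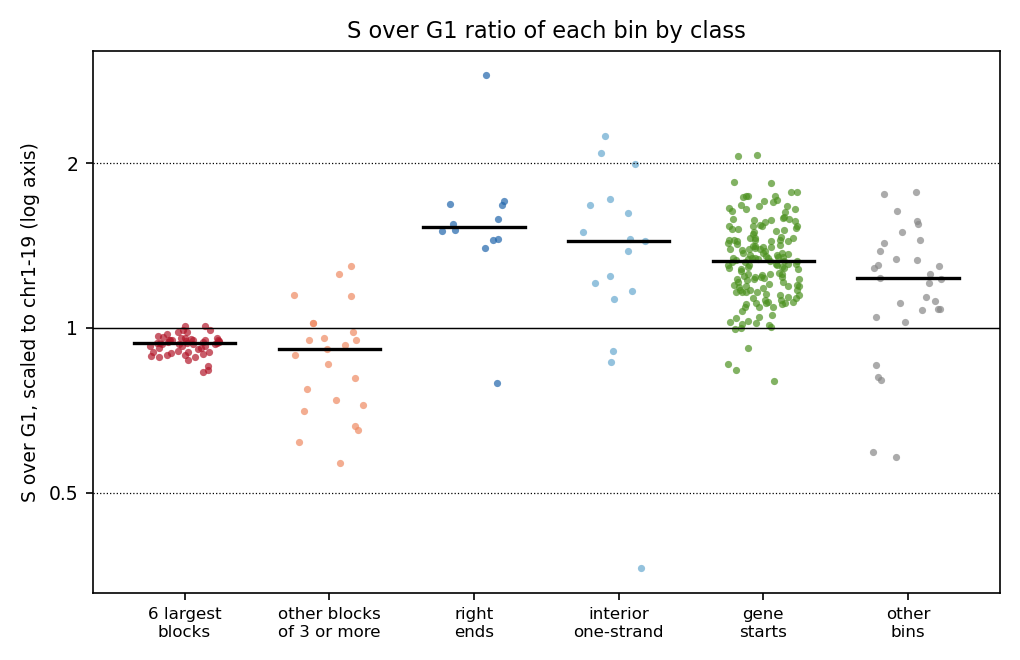
Points are the S over G1 ratios of the 300 bins (vertical log axis, scaled to chromosomes 1 to 19) by class, the thick bars are class medians, and the dotted lines mark 2 and 0.5. The medians are 0.938 for the 6 largest blocks, 0.916 for the other blocks, 1.53 for right ends, 1.44 for interior one-strand bins, 1.32 for gene starts and 1.24 for the rest.

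Inside these 6 blocks the fine pattern of ends was shared by the libraries. Across positions of the chromosome 2 block, the log2 of reads plus 1 in S correlated with that in G1 at 0.98 on each strand. On chromosome 12 the value was 0.99 on each strand, and in the other 4 blocks it ran from 0.88 to 0.98. Positions are not independent, and the value is given as a description. The next blocks by G1 reads varied, and such likeness was not particular to the largest. The minus strand gave 0.96 at the end of chromosome 16 and 0.92 in the Myo3a block. Their sparse plus strands gave 0.076 and 0.55. The bin at chr12:97061001-97062000 gave 0.73 (plus) and 0.81 (minus), and the block at chr1:24611001-24616000 gave 0.53 and 0.43. The chromosome 17 block gave 0.36 (plus) and 0.28 (minus), and the chromosome 11 block 0.14 on each strand, where reads per position were few.

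The strands were offset in the same way. The plus-strand pattern matched the minus-strand pattern best when the minus strand was read 71 to 74 bases further right in the S library and 70 to 74 in the G1 library, in all 6 blocks. At that offset the correlation between strands was 0.68 to 0.94 in S and 0.68 to 0.94 in G1. On the chromosome 9 and chromosome 14 blocks it was close to 0 with no offset. Reads from such a pair of positions run toward each other, not away from a shared point. Whether the offset comes from the DNA ends or from how reads were placed was not tested. In the next blocks by G1 reads the best offset ran from 6 to 88 bases in S and from -68 to 104 in G1. The correlations there were lower, 0.033 to 0.285 in S and 0.032 to 0.375 in G1. In the Myo3a block the offset was 77 bases in both libraries.

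The chromosome 9 block repeated itself. Among lags of 100 to 1000 bases, a range chosen after seeing the data, the autocorrelation of capped read counts was highest at 234 bases on both strands and in both libraries. It was 0.123 on plus and 0.118 on minus in S, and 0.120 on plus and 0.119 on minus in G1, where the median lag gave 0.0139 to 0.0168 over the 4 tracks. On log2 counts the lags of 234 and 468 bases, the second 2 times the first, were the highest pair in every track. The third was 643 bases on plus and 644 on minus, which are not multiples of 234. These lags sat in a series of roughly evenly spaced local peaks with a shorter step than 234. On log2 counts of the S plus strand it ran through 234, 293, 350, 409, 468, 526, 585, 643 and 702 bases. Some of these peaks were low, such as 0.00572 at 350 bases, and other local peaks lay between them. The series was picked out after the values were seen. On capped counts the plus strand was higher at 643 than at 468, with 0.1104 against 0.1097 in S and 0.1097 against 0.1061 in G1. On the minus strand 644 stayed below 468. Major satellite, the tandem repeat beside mouse centromeres, is known for a repeat unit of this order of length, but the bases of the block were not read here.

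Stacks of similar height recurred across that block. Whether they are copies of 1 sequence was not tested. The block's 9 highest minus-strand positions held 3043 to 3205 reads each in S and 3602 to 3853 in G1, and the 10th held 1611 in S and 1888 in G1. The SD over the 9 was 64.8 reads in S and 67.8 in G1, near the square root of the mean, 55.7 in S and 61.0 in G1. The 9 positions lay 823 to 8773 bases apart and were the same in both libraries. Most of these distances were not whole multiples of 234 bases. Divided by 234, they gave from left to right 5.49, 17.2, 3.52, 10.3, 14.8, 29.0, 16.5 and 37.5, of which 29.0 alone is close to a whole number. The fractions still recurred, as 5.49, 3.52, 16.5 and 37.5 lay close to midway between whole numbers. Of the rest, 17.24 and 14.76 lay about midway between such a midpoint and a whole number, and 10.34 stood apart. Whether the stacks keep to a step shorter than 234 bases was not tested. Their summed ratio was 1.09, above that of any whole bin of the block.

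**Figure D3:**
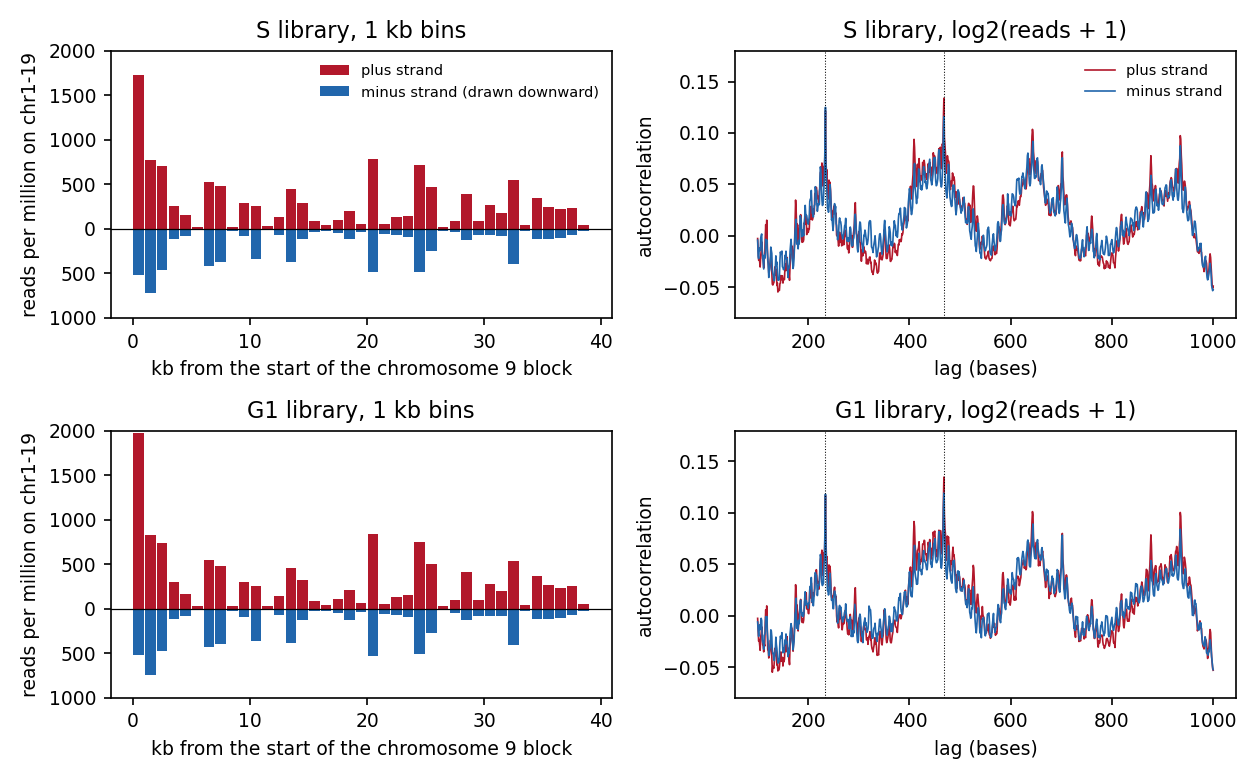
Left panels show RPM in the 39 bins of the chromosome 9 block by distance from its start, S library above G1, with plus-strand reads drawn upward and minus-strand reads downward. Right panels show the autocorrelation of log2(reads + 1) per strand at lags of 100 to 1000 bases, S above G1, with dotted lines at 234 and 468 bases, where both strands of both libraries peak.

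The other blocks of 3 or more bins were smaller and less alike. Together they held 31188 S reads and 41138 G1 reads, and the summed ratio was 0.992 (0.978 to 1.01), with bins from 0.567 to 1.30. That value near 1 depended on the block in Myo3a, without which it was 0.816 (0.797 to 0.836). It was also below 1 with capped reads, at 0.825 (0.807 to 0.844), and with each covered position counted once, at 0.871 (0.832 to 0.912).

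A block in Myo3a, which encodes an unconventional myosin of sensory hair cells, lay at chr2:22587001-22590000. It held 20166 S reads and 23467 G1 reads with a ratio of 1.12 (1.10 to 1.15). Its reads were 2.22% plus strand in S and 3.92% in G1. A single minus-strand position held 6319 of the S reads and 6994 of the G1 reads. The block at chr1:24611001-24616000, which overlaps the pseudogenes Gm10222 and Gm10925 and lies in a stretch known in mouse to be a nuclear copy of mitochondrial DNA, held 6330 S reads and 11314 G1 reads. Its ratio was 0.732 (0.710 to 0.755). The mitochondrial genome itself held 80252 S reads and 112599 G1 reads, a ratio of 0.933 on the same scale, so that block lay below it.

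The block at the start of chromosome 11, chr11:3185001-3200000, lies in Sfi1, whose product binds centrin at centrosomes. It had 9 member bins with 2103 S reads and 3225 G1 reads and a ratio of 0.854 (0.808 to 0.902). The block at chr17:39843001-39849000 carries Rn18s-rs5, a sequence related to 18S ribosomal RNA, and AY036118. It held 2589 S reads and 3132 G1 reads with a ratio of 1.08 (1.03 to 1.14). The added sequence chrR, taken to be the ribosomal DNA repeat, had a ratio of 0.979 (0.967 to 0.992). The single bin at chr12:97061001-97062000, with no RefSeq gene, completed the 12 blocks with the most G1 reads apart from a chromosome end described next. It held 1031 S reads and 2319 G1 reads, a ratio of 0.582 (0.540 to 0.626).

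The 5 lowest ratios of the 300 all lay outside the 6 largest blocks. They included the chromosome 12 bin just named, a Myo3a bin at chr2:22588001-22589000 with 238 S reads and 549 G1 reads (0.567, 0.485 to 0.662), and a bin of the chromosome 1 block at chr1:24615001-24616000 with 1257 S reads and 2656 G1 reads (0.619, 0.579 to 0.663). A bin at chr15:75085001-75086000 with no RefSeq gene held 148 S reads and 327 G1 reads (0.592, 0.485 to 0.722). The lowest of all is described with the one-strand bins.

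By raw reads, chromosome right ends had the highest summed ratio of the 6 classes, an order that did not hold in each way of counting. The assemblies of mouse chromosomes begin at the centromere, so the right end is the telomere far from it. The 12 bins within 10 kb of the last covered position came from 11 chromosomes, a region that holds 0.00841% of all covered bins. They held 15062 S reads and 10108 G1 reads, and 11 of 12 had a ratio above 1. The summed ratio was 1.95 (1.90 to 2.00).

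One chromosome weighed heavily on that sum. The end of chromosome 16 (chr16:98107001-98108000) held 7012 S reads and 3171 G1 reads, a ratio of 2.89 (2.78 to 3.02) that was the highest of all members. Without it the other 11 bins summed to 8050 S reads and 6937 G1 reads, a ratio of 1.52 (1.47 to 1.57), beside 1.497 (1.46 to 1.54) for interior one-strand bins. With each covered position counted once, the ratio of the 12 bins was 1.07 (0.995 to 1.15). That was below gene starts at 1.27, interior one-strand bins at 1.13 and the rest at 1.08, so the difference lay in reads per position, 9.19 in S and 6.93 in G1. With capped reads the 12 bins gave 1.53 (1.48 to 1.57), above gene starts at 1.28, interior one-strand bins at 1.24 and the rest at 1.12. Within the chromosome 16 bin, 1 position held 2025 S reads and 1493 G1 reads. The end of chromosome 10 was the exception to the direction, with 213 S reads and 351 G1 reads and a ratio of 0.794 (0.667 to 0.944). The remaining 10 bins had ratios of 1.40 to 1.71.

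All 12 bins, 2 of them neighbours at the end of chromosome 14, were read mainly on the minus strand, with 89.7 to 99.5% of S reads and 92.3 to 99.5% of G1 reads there. Reads on this strand start at the right and run leftward into the chromosome. Their starts were spaced by 6 bases. Among lags of 2 to 30 bases, a range set after seeing the data, the autocorrelation of the richer strand peaked at 6 in both libraries in 12 of 12 bins, at 0.472 to 0.914 in S and 0.582 to 0.896 in G1. In the 980 of the next 1000 bins that were not one-strand, 1.53% did so.

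**Figure D4:**
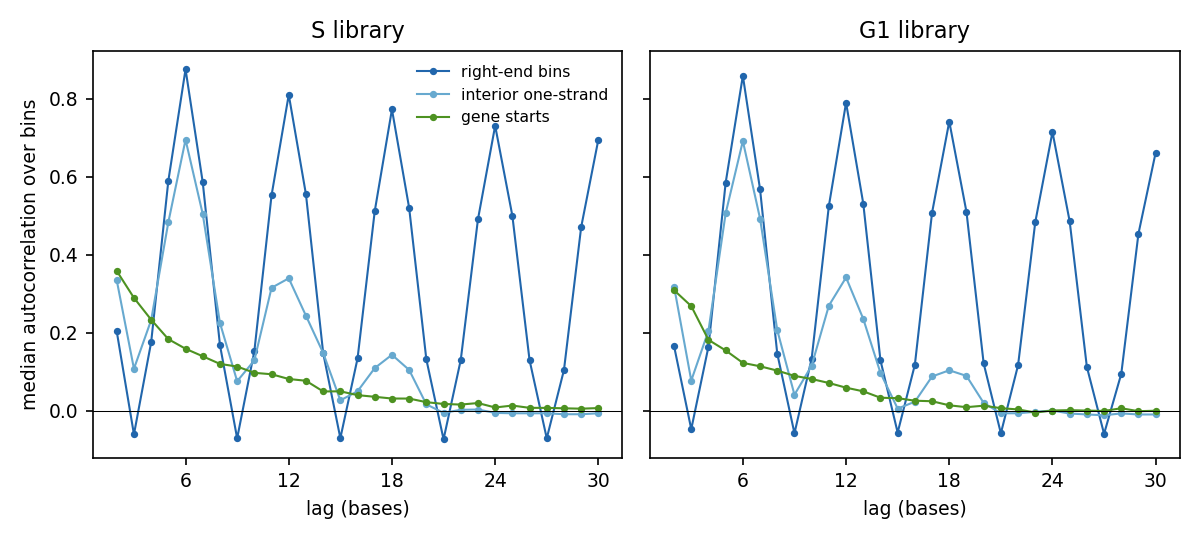
Lines are the median autocorrelation over bins of log2(reads + 1) on the richer strand at lags of 2 to 30 bases, S library left and G1 library right, for 12 right-end bins, 17 interior one-strand bins and 164 gene starts. In both libraries right ends peak at every multiple of 6 bases up to 30, interior one-strand bins at 6, 12 and 18 bases, and gene starts fall off without such peaks.

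Interior bins could show the same pattern. Of the 300 members, 28 were one-strand by the 95% limit, against 1.32% of the 6919 bins named above. Of these 28, 17 were interior bins outside the blocks, and 13 of the 17 had the peak at 6 bases in both libraries. One-strand bins outside the members had it in 19% of 63 cases. Among the members that were not one-strand, 2.94% of 272 had it. The interior bins faced both ways, 11 with plus-strand and 6 with minus-strand reads.

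The 17 held 11803 S reads and 10317 G1 reads with a ratio of 1.497 (1.46 to 1.54), and 14 were above 1. With each covered position counted once it was 1.13 (0.986 to 1.30), an interval that includes 1, and with capped reads 1.24 (1.19 to 1.29). The largest, at chr17:53152001-53153000, held 2673 plus-strand and 12 minus-strand reads in S, against 2043 plus-strand and 3 minus-strand reads in G1. Its ratio was 1.72 (1.62 to 1.82). A bin at chr5:146666001-146667000 held 8 plus-strand and 1808 minus-strand reads in S, against 1 and 1061 in G1, a ratio of 2.24 (2.07 to 2.42). A bin at chr13:110603001-110604000 held 820 plus-strand reads and no minus-strand read in S, against 511 and 4 in G1, a ratio of 2.08 (1.86 to 2.33). None of these bins overlapped a RefSeq gene.

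Other interior bins were about as skewed without a high ratio. A bin at chr16:5709001-5710000 held 760 plus-strand and 11 minus-strand reads in S, against 862 and 0 in G1, a ratio of 1.17 (1.06 to 1.29). A bin at chr9:27213001-27214000 held 381 plus-strand and 10 minus-strand reads in S, against 407 and 5 in G1, a ratio of 1.24 (1.08 to 1.43), and had no 6-base peak. A bin at chr1:100738001-100739000 held 4 plus-strand and 469 minus-strand reads in S, against 4 and 711 in G1, and its ratio was below 1, at 0.866 (0.769 to 0.974).

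The member with the lowest ratio was also one-strand. At chr6:9889001-9890000, with no RefSeq gene, S held 79 reads, all on the plus strand, and G1 held 278 plus-strand and 6 minus-strand reads, a ratio of 0.364 (0.280 to 0.469). It lacked the 6-base peak in the G1 library, and 113 of its G1 reads lay at 1 position. A depth of 79 reads on 13 positions makes its ratio one of the least certain among the members.

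Gene starts made up 164 of the 300 bins but only 3.66% of the members' reads in S and 2.62% in G1. They held 66295 S reads and 65198 G1 reads, and the summed ratio was 1.33 (1.32 to 1.35). Of the 164, 159 were above 1. Outside the members, 87.9% of the 2955 gene-start bins that reached 50 reads were above 1. A ratio of at least 2 with both strands higher was met by 28.6% of the 2955, and by 2 of the 164 members. The median ratio of the 2955 was 1.65, against 1.32 for the members, which were selected for a high G1 sum. A bin could join the 2955 by reaching 50 reads in the S library alone or in the G1 library alone. Bins that entered by S alone have high ratios by this rule, so the values of the 2955 are descriptions and no neutral background.

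Reads in these bins lay just before the annotated start. The highest position of a bin lay at a median of 81.5 bases upstream of the nearest start in S and 87 upstream in G1, and within 300 bases in 139 of 164 bins in S and 140 in G1. These bins had to overlap a window from 250 bases before to 50 bases after a start. That choice alone favours an upstream median, so the median is a description. Around the 120 starts with a single gene symbol, reads running with the gene peaked in the last 50 bases before the start, at 1.92 RPM per gene in S and 1.35 in G1. Reads running against the gene peaked 101 to 150 bases before it, at 1.86 in S and 1.44 in G1. By genome strand, pooled over genes of both orientations, 48.4% of the reads of the 164 bins were plus-strand in S and 49.3% in G1. Single bins, with both libraries together, ran from 9.25 to 92.9%. These shares do not give the balance relative to the gene.

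**Figure D5:**
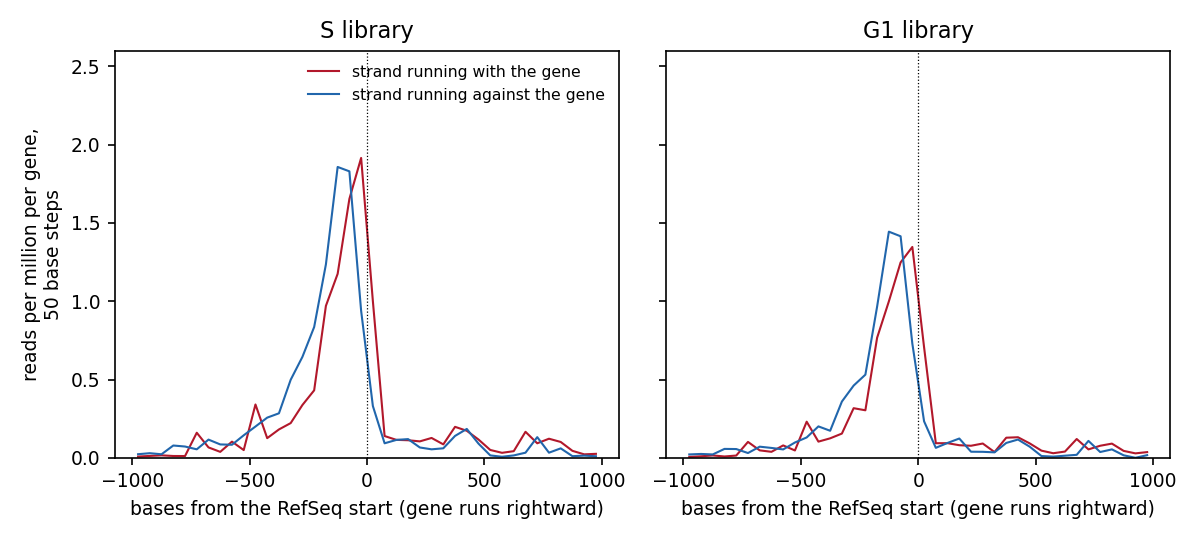
RPM per gene and 50-base step is shown around 120 RefSeq gene starts in member bins, S library left and G1 library right, with genes oriented rightward. Reads running against the gene peak further upstream than reads running with it, in both libraries.

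The printed windows belong to such bins. The Dcaf11 bin, at the start of a gene for a substrate receptor of a cullin ubiquitin ligase, held 698 S reads and 821 G1 reads, a ratio of 1.11 (1.00 to 1.23). The position in its capitals carried 121 plus-strand reads in S and 138 in G1. The Gdi2 bin, whose gene product retrieves Rab GTPases from membranes, held 777 S reads and 801 G1 reads, a ratio of 1.27 (1.15 to 1.40), with 240 S reads and 189 G1 reads on the minus strand at the capitals.

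The Camta1 bin, at a gene for a calmodulin-binding transcription activator, held 720 S reads and 791 G1 reads, a ratio of 1.19 (1.08 to 1.32). Fam72a, whose product limits the uracil glycosylase Ung in B cells, shared its bin with Srgap2, and that bin held 776 S reads and 768 G1 reads, a ratio of 1.32 (1.20 to 1.46). The Narf bin, at a gene for a prelamin-binding nuclear protein, held 676 S reads and 742 G1 reads, a ratio of 1.19 (1.07 to 1.33). In the Fam72a and Narf windows the highest S position was another base than the highest G1 position. In the windows of Dcaf11, Gdi2 and Camta1 it was the same base.

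The highest gene-start ratios were at Tle4, which encodes a transcriptional corepressor, and at Dancr. The Tle4 bin held 465 S reads and 294 G1 reads, a ratio of 2.07 (1.79 to 2.40). The Dancr bin, which also holds Snora26, held 501 S reads and 318 G1 reads, a ratio of 2.06 (1.79 to 2.38). Both are descriptions of the top of a list of 164.

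The start windows of these bins were rich in CpG. Of 236 RefSeq windows that touched a gene-start member, 92.4% had an observed over expected CpG ratio above 0.6, against 35.9% of the 31160 other windows on chromosomes 1 to 19. The median GC content was 63% in the members' windows and 53% in the others. The motif GGGCGG, searched on both strands, was present in 78.4% of the members' windows and 35.7% of the others, and TATAAA was present in 4.24% of the members' windows and 13.7% of the others. TTAGGG was present in 12.3% of the members' windows and 10.6% of the others.

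The remaining 31 bins fell in no class. They held 14688 S reads and 17345 G1 reads with a ratio of 1.11 (1.08 to 1.13), and 24 of them overlapped a RefSeq gene.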

How the data were processed

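The data are END-seq libraries of CD43- splenic B cells, 1 from activated cells in S phase and 1 from quiescent cells in G1 phase, grouped by their titles. The authors deposited 1 track per library and strand, and per the file headers each is a bedGraph of 1 strand. The deposited counts give, for every base, how many reads begin there, and are not normalized. The submitters' processing notes name bedtools, SAMtools 1.11 and Bowtie 1.1.2, with mm10 as the build. How reads that match several places and duplicate reads were handled is not given in the sources used here, and both bear directly on satellite stacks.

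Sums over 1 kb bins used pandas 2.3.3 and numpy 2.4.6 under Python 3.11.15, and matplotlib 3.10.9 drew the plots. The S library held 21997695 reads on 7752336 strand-specific positions and the G1 library 28933109 reads on 7538681. Ratios are S over G1 scaled to the total on chromosomes 1 to 19, with conditional exact Poisson intervals, and shares carry Clopper-Pearson intervals (scipy 1.17.1), all at 95% and for counting error only. The limit for a place without reads, 3 reads, equals 0.146 reads in S and 0.112 reads in G1 per 1000000 reads on chromosomes 1 to 19. No test was run, since each state has 1 library. Calls, intervals and lags were tested on simulated data. For calls and intervals these were independent counts without stacks, and for calls the strands were even. That check therefore does not cover stacked or one-strand bins.

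Regions were named by rule: the 12 blocks with the most G1 reads, the 5 highest and 5 lowest bins by ratio and by plus-strand share, and the 3 bins on each side of the limit. The members and lists were chosen with earlier results of these data known. The classes, the lag ranges, the printed windows and the cut at 9 stacks on chromosome 9 were chosen after the values were seen. Genes and start windows came from RefSeq tables of GRCm38.p6, the mm10 assembly, where 268 genes overlapped member bins. Alternatives covered scaling, stacked reads, strands, member numbers, bin offsets, block gaps and thresholds.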

Additional observations from a re-analysis of the deposited data

How the results depend on the processing

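The summed ratio of the members was 0.954 and stayed below 1 under other scalings (0.949 to the total without the members, 0.958 to the whole library, 0.947 to the median 100 kb window), with positions counted once (0.982), on the plus (0.948) or minus strand alone (0.957), for 100 (0.942) or 1000 bins (0.978), for the 300 bins highest in S (0.958) or in the mean of both (0.957), and without the chromosome 2 block (0.970). With capped reads it was 1.00. The share of S reads was 0.570% with positions counted once, 1.73% capped and 8.24% of the whole library. Members past 2-fold, 5 in all, became 0 with positions counted once or capped, 65 at 1.5-fold and 11 for the bins highest in S. The plus-strand share in S became 51.2% with positions counted once, 55.8% capped and 48.2% without the chromosome 2 block. Shared bins, 245 of the top 300, were 89 of the top 100, 837 of the top 1000 and 187 of 300 with S positions counted once. Near the start of chromosome 9, the highest lag of 20 to 1000 bases was 21 in the G1 plus-strand track as designed, 24 for covered positions and 410 for raw reads, and over lags of 100 to 1000, added after seeing the data, 234 capped and 468 on log2 counts. Reads per position in S were 39.2 without the highest position of each strand, against 44.8. Why these values moved was not tested beyond the construction of each setting. Of the recomputed class ratios, 16 stayed inside the interval of the reported value and 17 moved outside it. Their values stayed on 1 side of 1, but with positions counted once the intervals of right ends (0.995 to 1.15) and interior one-strand bins (0.986 to 1.30) included 1. The interval of the other blocks of 3 or more bins included 1 as reported (0.978 to 1.01) and under each of the other scalings. No paired analysis was possible because each state has 1 library. Stacked reads without molecular identifiers limit all values.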

Other observations

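Sequences outside chromosomes 1 to 19 held bins as deep as the members. At the members' lowest level of 281 G1 reads, 74 bins lay on unplaced or random contigs, 46 on chrR, 17 on the mitochondrial genome, 3 on the X and 3 on the Y chromosome. The 74 contig bins held 232873 S reads and 330308 G1 reads, a ratio of 0.923 on the scale of chromosomes 1 to 19. The contig JH584304 alone held 209646 S reads and 295210 G1 reads, a ratio of 0.930 (0.924 to 0.935), beside 0.934 for the 6 largest blocks. Its plus-strand share of 63.6% in S and 64.1% in G1 stood beside 63.8% in S and 64.2% in G1 for the chromosome 9 block. Other contigs had other shares. The contig GL456396 held 17291 S reads and 26301 G1 reads, a ratio of 0.861 (0.844 to 0.877), with 34.7% plus-strand reads in S and 35.3% in G1. The contig GL456392 held 12831 S reads and 17604 G1 reads, a ratio of 0.954 (0.932 to 0.976), with 56.3% plus-strand reads in S and 57.0% in G1.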
